A study of Homo sapiens with 10 samples.

Results

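A set of 8 genes that control plasmin formation and the start of clotting was followed across 10 Affymetrix expression arrays of 2 non-small cell lung carcinoma lines. The genes are PLAU, PLAT, PLAUR, SERPINE2, F3, TFPI, TFPI2 and THBD. They were taken as every probe set whose annotation names 1 of these genes and no other, which gave 19 probe sets out of 41091 with a single gene, and 8 genes out of 19775. Of the 19 probe sets, 15 were bright enough to be tested and 4 were not, namely the single probe set of PLAT and 1 dim probe set each of SERPINE2, TFPI and THBD.

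Plasminogen activators cut plasminogen to plasmin, a protease that dissolves fibrin and degrades extracellular matrix. PLAU encodes urokinase, the activator that works at the cell surface when bound to its receptor PLAUR, PLAT encodes the tissue-type activator, and SERPINE2 encodes protease nexin-1, a serpin that inhibits urokinase and thrombin. On the clotting side F3 encodes tissue factor, the membrane receptor of factor VII that starts the cascade, and TFPI encodes its Kunitz-type inhibitor. TFPI2 is a related Kunitz-type inhibitor found largely in the matrix and active on plasmin and trypsin, and THBD encodes thrombomodulin, the surface receptor that turns thrombin towards activation of protein C. Urokinase, its receptor and tissue factor are well known in lung carcinoma for their part in invasion and in cancer-associated thrombosis.

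The lines were A549, a lung adenocarcinoma line, and HTB-182, a squamous cell lung carcinoma line. After 4 h in medium with 10% charcoal-stripped serum, which removes steroids, each line was exposed for 3 h to 1 of 5 conditions. These were 1 µM estradiol-BSA with 10 µM tamoxifen, 1 µM estradiol-BSA, 1 µM estradiol with 10 µM tamoxifen, 1 µM estradiol, and 0.1% ethanol as the vehicle. Estradiol-BSA is estradiol coupled to albumin, used to address receptors at the plasma membrane, and tamoxifen was used as the receptor inhibitor. The comparisons ask how the lines differ, whether either form of estradiol moves these genes, and whether tamoxifen alters that. No array had tamoxifen alone, so an effect of tamoxifen by itself cannot be told apart from a change in the estradiol response. Every combination of line and condition was 1 array and no repeat cultures are stated, so a p-value here is set against array-to-array scatter, whether that is technical or comes from the lines responding unequally. The titles of the arrays of estradiol with tamoxifen name only tamoxifen, and the source entries of the A549 arrays join both line names while their cell line entry reads A549. Conditions were taken from the source entries. Each histology is represented by 1 line.

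Intensities are signals on a linear scale as the authors deposited them, and log2 differences are of log2(intensity + 16), so folds of dim probe sets are understated. An intensity of 19.7, the median over all probe sets, served as the filter level. The number of arrays limits the precision. On the A549 vehicle array 479 of 23144 tested probe sets were 2-fold or more away from the average of the remaining arrays of that line, while the count was 39 to 73 on the others of A549 and 0 to 18 on those of HTB-182. Of the markers of cell type, KRT7, a keratin of glandular epithelium, averaged 3411 ± 581 in A549 and 18.1 ± 4.37 in HTB-182, and SOX2, a squamous lineage factor, averaged 135 ± 59.6 in A549 and 4152 ± 229 in HTB-182 (SD, n = 5 each). Of 7 adenocarcinoma and alveolar markers measured 5 reached the filter level in A549 and 4 in HTB-182, and of 7 squamous markers 4 reached it in A549 and 4 in HTB-182. Others did not follow the histology. KRT14 averaged 8.43 in HTB-182 and NKX2-1 averaged 17.0 in A549, both below that level. The squamous marker PERP was higher in A549, at 3846 ± 347 in A549 and 3027 ± 112 in HTB-182 (limma adjusted p = 0.000255), and KRT5, SFTPB and SFTPC reached the level in both lines and did not pass. The endothelial genes CDH5 and KDR, markers of a cell type rich in TFPI and THBD, averaged 4.14 and 6.20 in A549 and 4.14 and 6.91 in HTB-182, while PECAM1 and TEK reached the filter level in both lines. Of 8 endothelial and blood markers 4 reached it in A549 and 3 in HTB-182, and of 5 fibroblast markers 3 reached it in A549 and 2 in HTB-182. The summed intensity of the endothelial and blood list was 170.3 to 252 over the A549 arrays and 116 to 132 over the HTB-182 arrays, and that of the fibroblast list was 359 to 555 in A549 and 70.1 to 83.9 in HTB-182. Among them the monocyte marker CD14 averaged 82.2 ± 36.6 in A549 and 10.6 ± 1.46 in HTB-182, and the collagen COL1A1 averaged 382 ± 78.4 in A549 and 20.6 ± 1.40 in HTB-182, both higher in A549 as the members were. The rest did not pass, 3 of 4 endothelial and blood markers tested and 1 of 2 fibroblast markers tested. ITGAM averaged 30.3 in A549 and 35.1 in HTB-182, and DCN 40.3 and 36.5. Of the untested collagens COL1A2 averaged 8.56 and 8.21, and COL3A1 31.8 and 7.16. The part of these cell types in the line differences was not tested. The ratio of 3′ to 5′ ACTB control probe sets, a measure of RNA quality, differed between the lines without overlap. It was 2.66 to 3.57 over the A549 arrays and 3.74 to 6.13 over those of HTB-182. The same ratio of GAPDH overlapped, at 1.43 to 1.61 in A549 and 1.46 to 1.74 in HTB-182. The part of RNA quality in the line differences was not tested.

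The plasminogen activator PLAU was measured well in A549 and lay near or below the filter level in HTB-182. In A549 its brighter probe set, 205479_s_at, had intensities of 272 with estradiol-BSA and tamoxifen, 203 with estradiol-BSA, 123 with estradiol and tamoxifen, 308 with estradiol and 216 with vehicle. In HTB-182 the same probe set read 22.0 with estradiol-BSA and tamoxifen, 17.5 with estradiol-BSA, 10.5 with estradiol and tamoxifen, 11.04 with estradiol and 27.8 with vehicle. All A549 arrays lay above all HTB-182 arrays, and within A549 the array of estradiol with tamoxifen was lowest and that of estradiol alone highest. PLAU averaged 224 ± 70.7 in A549 and 17.8 ± 7.37 in HTB-182 (SD, n = 5 each), a log2 difference of 2.80 ± 0.16 (SE) or 6.97-fold, and it was higher in A549 (limma adjusted p = 3.5e-08, all 5 treatment pairs). The dimmer PLAU probe set, 211668_s_at, averaged 58.4 ± 17.9 in A549 and 14.5 ± 2.75 in HTB-182 with a log2 difference of 1.26 ± 0.12 (limma adjusted p = 3.2e-06). In bulk RNA such a difference cannot separate fewer expressing cells from less RNA per cell. PLAT, the tissue-type activator, ran from 6.46 to 11.6 in A549 and from 4.25 to 6.12 in HTB-182, under the filter level on every array, and it was not tested.

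PLAUR, the urokinase receptor, was also higher in A549. Its brightest probe set, 210845_s_at, read 120.4 with estradiol-BSA and tamoxifen, 119 with estradiol-BSA, 147 with estradiol and tamoxifen, 172 with estradiol and 275 with vehicle in A549. In HTB-182 it read 26.7 with estradiol-BSA and tamoxifen, 24.9 with estradiol-BSA, 23.8 with estradiol and tamoxifen, 23.0 with estradiol and 30.4 with vehicle. The lines did not overlap, and in both of them the vehicle array was the highest. PLAUR averaged 167 ± 64.3 in A549 and 25.8 ± 2.96 in HTB-182 (SD, n = 5 each), a log2 difference of 2.07 ± 0.14 or 4.20-fold (limma adjusted p = 1.6e-07). Probe set 211924_s_at differed by 1.12 ± 0.14 (limma adjusted p = 2.1e-05) and probe set 214866_at by 0.83 ± 0.15 (limma adjusted p = 0.000501), both in the same direction.

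The serpin SERPINE2 was bright in A549 and clearly detected in HTB-182 as well. Its probe set 212190_at read 1192 with estradiol-BSA and tamoxifen, 1143 with estradiol-BSA, 1098 with estradiol and tamoxifen, 1250.1 with estradiol and 866 with vehicle in A549. In HTB-182 it read 75.9 with estradiol-BSA and tamoxifen, 76.2 with estradiol-BSA, 59.2 with estradiol and tamoxifen, 68.6 with estradiol and 60.3 with vehicle. Every A549 array was more than 10-fold above every HTB-182 array on the linear scale, and within A549 the vehicle array was the lowest. The log2 difference was 3.74 ± 0.10 or 13.3-fold (limma adjusted p = 5.0e-11). The other SERPINE2 probe set, 227487_s_at, ran from 4.92 to 7.23 in A549 and from 5.82 to 7.94 in HTB-182, far under the filter level in both lines, so the 2 probe sets of this gene disagree.

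Tissue factor, F3, was the tested member with the smallest log2 difference between the lines. Its probe set 204363_at read 37.7 with estradiol-BSA and tamoxifen, 35.3 with estradiol-BSA, 29.7 with estradiol and tamoxifen, 28.9 with estradiol and 36.2 with vehicle in A549. In HTB-182 it read 27.1 with estradiol-BSA and tamoxifen, 22.8 with estradiol-BSA, 27.5 with estradiol and tamoxifen, 27.3 with estradiol and 25.6 with vehicle. The A549 arrays lay just above the HTB-182 arrays, the lowest of A549 at 28.9 and the highest of HTB-182 at 27.5. The log2 difference was 0.23 ± 0.09 or 1.18-fold and passed the threshold (limma adjusted p = 0.0332). That call was lost with no filter (adjusted p = 0.066), after quantile normalization (adjusted p = 0.0666) and without the vehicle, estradiol-BSA or estradiol-BSA with tamoxifen array of either line, where limma's adjusted p reached 0.127.

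The tissue factor inhibitor TFPI and its relative TFPI2 showed the widest gaps of the set between the lines, with any of the 3 pseudocounts tried. TFPI probe set 213258_at read 2265 with estradiol-BSA and tamoxifen, 2275 with estradiol-BSA, 2268 with estradiol and tamoxifen, 1846 with estradiol and 1789.6 with vehicle in A549, against 4.98 to 7.20 over the 5 arrays of HTB-182. TFPI2 probe set 209278_s_at read 4147 with estradiol-BSA and tamoxifen, 3975 with estradiol-BSA, 4238 with estradiol and tamoxifen, 4577 with estradiol and 3913 with vehicle in A549, against 5.13 to 8.04 over the HTB-182 arrays. For both genes the HTB-182 values lay far under the filter level, at the floor of the arrays, on every treatment. The log2 difference of TFPI was 6.60 ± 0.11 or 97.1-fold (limma adjusted p = 2.4e-12) and that of TFPI2 was 7.56 ± 0.09 or 188-fold (limma adjusted p = 3.9e-13). The other tested probe sets of TFPI averaged 547 ± 211, 134 ± 48.6 and 131 ± 30.5 in A549 (210664_s_at, 210665_at and 209676_at; SD, n = 5 each). In HTB-182 these 3 averaged 5.61 ± 1.02, 4.84 ± 0.621 and 3.59 ± 0.342. The remaining TFPI probe set, 214378_at, stayed under the filter level in both lines, from 7.15 to 8.43 in A549 and from 4.44 to 6.35 in HTB-182. The other TFPI2 probe set, 209277_at, averaged 1976 ± 774 in A549 and 8.51 ± 0.856 in HTB-182, a log2 difference of 6.24 ± 0.20 (limma adjusted p = 2.3e-10).

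Thrombomodulin, THBD, was also higher in A549. Probe set 203887_s_at read 159 with estradiol-BSA and tamoxifen, 193 with estradiol-BSA, 335 with estradiol and tamoxifen, 367 with estradiol and 361 with vehicle in A549. In HTB-182 it read 9.70 with estradiol-BSA and tamoxifen, 8.52 with estradiol-BSA, 10.3 with estradiol and tamoxifen, 7.91 with estradiol and 6.03 with vehicle. The lines did not overlap, and within A549 both arrays of estradiol-BSA were low while the other 3 lay close together. THBD averaged 283 ± 99.1 in A549 and 8.49 ± 1.66 in HTB-182 (SD, n = 5 each), a log2 difference of 3.54 ± 0.18 or 11.6-fold (limma adjusted p = 1.4e-08). Probe set 203888_at differed by 1.86 ± 0.12 (limma adjusted p = 1.2e-07). Probe set 237252_at was too dim over both lines to be tested and averaged 33.2 ± 10.0 in A549 and 8.19 ± 0.849 in HTB-182.

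**Figure D1:**
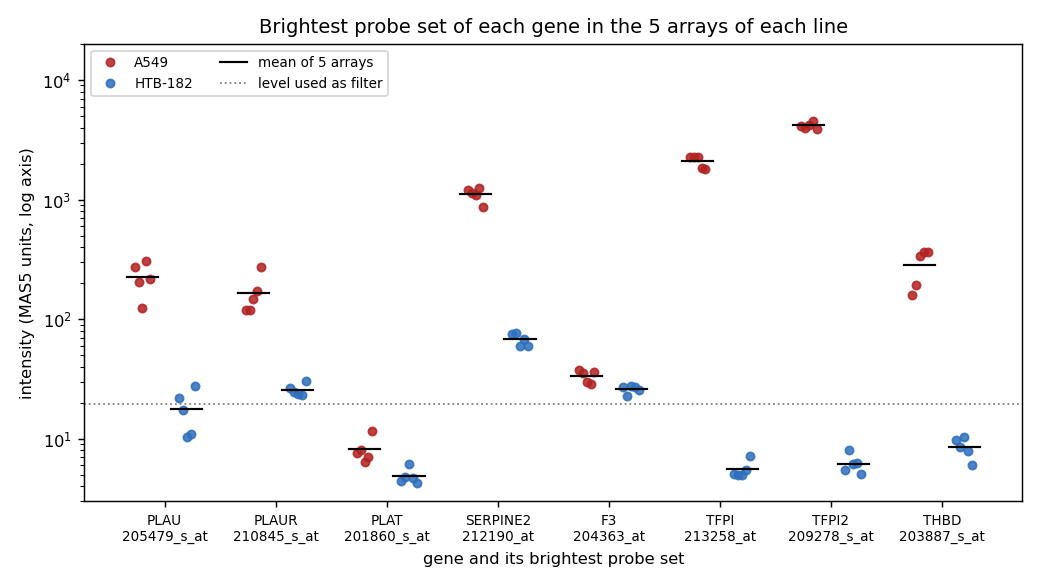
Intensity on a log axis of the brightest probe set of each of the 8 genes, 1 point per array, A549 to the left of HTB-182 and a bar at the mean of 5 arrays; the dotted line is the filter level of 19.7. TFPI2 averaged 4170.0 in A549 and 6.21 in HTB-182, while F3 averaged 33.5 in A549 and 26.1 in HTB-182.

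By the size of the log2 difference on this scale TFPI2 came first, then TFPI, SERPINE2, THBD, PLAU, PLAUR and F3. TFPI2, TFPI, THBD and PLAU averaged below the filter level in HTB-182, so the size of their differences is set in part by the added 16. With a pseudocount of 1, THBD at 4.84 came before SERPINE2 at 4.01, so the order of these 2 is not fixed. All 15 tested probe sets were higher in A549 at an adjusted p under 0.05, where 31.5% of the 23144 tested probe sets were higher and 63.8% passed in either direction. Of the 15, 13 were higher by at least 2-fold, against a background of 11.5%, and 6 by at least 8-fold, against 1.86%. Counting all 19 probe sets, 18 had every A549 array above every HTB-182 array, which held for 27.9% of tested probe sets. These counts support no statement on the set as a whole, because 11 of the 15 reached the filter level through A549 alone and so had to be higher there. The other 4, 212190_at of SERPINE2, 210845_s_at of PLAUR, 203888_at of THBD and 204363_at of F3, reached it in both lines and were all higher in A549.

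Other genes of plasmin formation, from a list of 17 of which 14 had a probe set of their own and 11 were tested, gave 7 higher in A549, 1 lower and 3 that did not pass, where 31.5% of all tested probe sets were higher and 32.3% lower. Of the 10 that reached the filter level in both lines 6 were higher and 1 was lower, and SERPINA5 reached it in A549 alone. S100A10, the annexin partner that binds plasminogen at the cell surface, averaged 6909 ± 363 in A549 and 58.9 ± 9.04 in HTB-182, a log2 difference of 6.54 ± 0.08. Its partner ANXA2 differed by 1.09 ± 0.04, and MRC2, the collagen receptor that associates with PLAUR, by 2.11 ± 0.10. ST14, the epithelial protease matriptase, which can activate the urokinase precursor, was the 1 lower gene, at 33.3 ± 7.54 in A549 and 426 ± 25.6 in HTB-182 with a log2 difference of -3.17 ± 0.11. The median log2 difference of the 11 was 0.38, beside 0.01 over all tested probe sets.

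Of 24 other clotting genes 23 had a probe set of their own and 15 were tested, with 9 higher in A549, 3 lower and 3 not passing, and a median log2 difference of 0.57. PROC, PROCR, F2R and F2RL2 reached the filter level in A549 alone and F13A1 in HTB-182 alone, so their direction follows from the filter. Of the 10 that reached it in both lines 5 were higher in A549, 2 were lower and 3 did not pass. PROCR, the endothelial protein C receptor, averaged 438 ± 65.2 in A549 and 5.87 ± 0.903 in HTB-182 (log2 difference 4.36 ± 0.11), and PROS1, the protein S cofactor of both activated protein C and TFPI, averaged 588 ± 61.4 in A549 and 29.5 ± 3.87 in HTB-182 (3.73 ± 0.10). PROC, protein C itself, differed by 1.11 ± 0.13. The thrombin receptor F2R differed by 3.21 ± 0.30 and its relative F2RL2 by 3.64 ± 0.11. F13A1, the A subunit of the fibrin-crosslinking factor XIII, was lower in A549, at 9.78 ± 2.21, against 146 ± 7.19 in HTB-182 (-2.66 ± 0.10). No gene of either list passed in a vehicle, conjugate or tamoxifen comparison of both lines together.

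**Figure D2:**
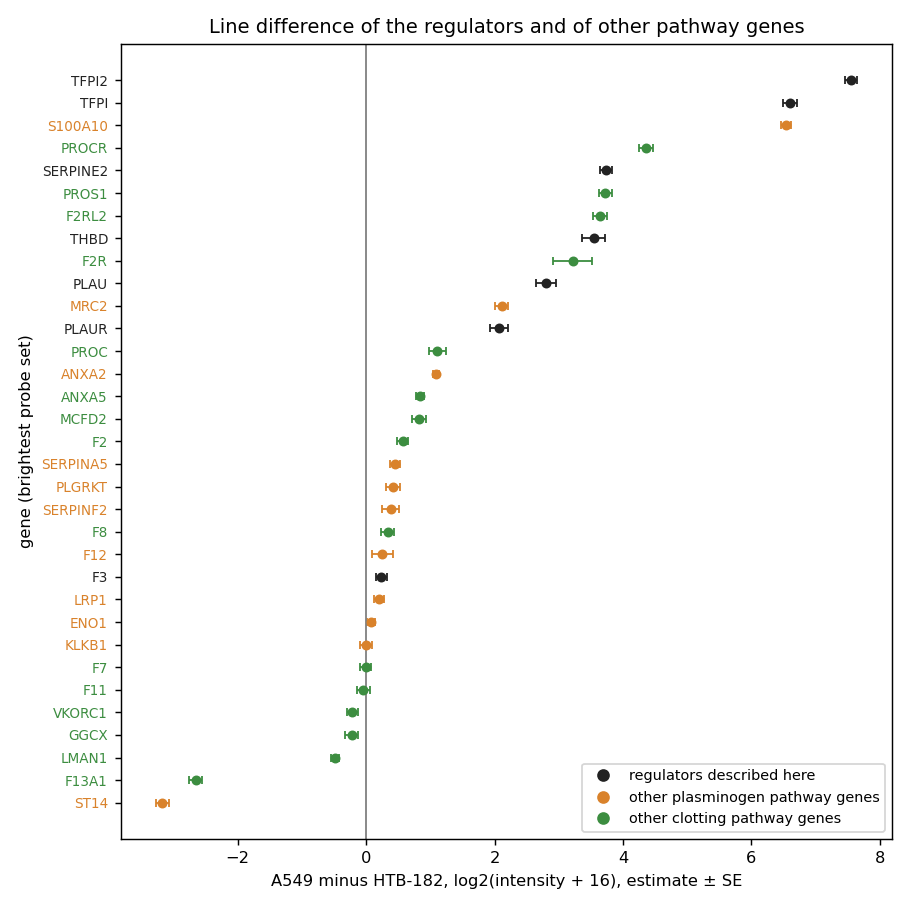
Log2 difference of A549 minus HTB-182 with its SE (horizontal axis) for the brightest tested probe set of the regulators (black) and of other plasminogen (orange) and clotting (green) genes, sorted by size. TFPI2 at 7.56 and TFPI at 6.60 lead, followed by S100A10 at 6.54, and ST14 at -3.17 is lowest.

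The start regions of 4 of these genes are shown because they set F3, whose line difference was small but read from a dim probe set, beside others. These are the 2 genes with the widest difference, TFPI2 and TFPI, and the receptor PLAUR. RefSeq windows on GRCh38.p14, of 250 bases before to 50 after the annotated start, were used for 6 of the 8 genes, 8 windows in all. Each was searched on both strands for the AP-1 letters TGANTCA, the GC box GGGCGG, the TATA box TATAAA and the full estrogen response element, which is GGTCA and TGACC set 3 bases apart. AP-1 letters are in capitals below, and each window is read 5′ to 3′ on the strand of its gene, which is the minus strand for all 4, at chr1:94541710-94542009 for F3, chr19:43670120-43670419 for PLAUR, chr7:93890704-93891003 for TFPI2 and chr2:187554386-187554685 for TFPI.
F3: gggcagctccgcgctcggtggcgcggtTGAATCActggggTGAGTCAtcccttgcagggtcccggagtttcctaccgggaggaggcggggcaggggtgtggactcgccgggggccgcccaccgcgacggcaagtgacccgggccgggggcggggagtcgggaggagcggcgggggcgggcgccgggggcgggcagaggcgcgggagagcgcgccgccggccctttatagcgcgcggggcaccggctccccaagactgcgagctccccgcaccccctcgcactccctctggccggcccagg
PLAUR: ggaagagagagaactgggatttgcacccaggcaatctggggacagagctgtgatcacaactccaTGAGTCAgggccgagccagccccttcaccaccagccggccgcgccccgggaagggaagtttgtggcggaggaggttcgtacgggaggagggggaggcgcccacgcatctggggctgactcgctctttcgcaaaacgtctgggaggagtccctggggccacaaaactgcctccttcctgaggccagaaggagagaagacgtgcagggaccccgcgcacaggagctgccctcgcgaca
TFPI2: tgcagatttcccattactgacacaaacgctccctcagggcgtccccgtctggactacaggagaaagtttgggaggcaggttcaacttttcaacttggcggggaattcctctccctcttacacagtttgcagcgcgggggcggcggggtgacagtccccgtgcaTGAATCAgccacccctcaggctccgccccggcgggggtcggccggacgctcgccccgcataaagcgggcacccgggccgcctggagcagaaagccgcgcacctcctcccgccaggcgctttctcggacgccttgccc
TFPI: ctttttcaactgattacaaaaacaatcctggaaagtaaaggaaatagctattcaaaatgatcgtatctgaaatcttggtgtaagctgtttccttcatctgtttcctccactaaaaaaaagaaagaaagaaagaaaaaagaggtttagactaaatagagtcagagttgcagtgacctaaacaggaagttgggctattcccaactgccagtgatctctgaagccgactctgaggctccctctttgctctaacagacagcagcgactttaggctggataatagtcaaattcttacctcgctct
The F3 window held 2 AP-1 matches, starting 223 and 210 bases before the start, the PLAUR window 1 at 186 bases before it and the TFPI2 window 1 at 87 bases before it. No AP-1 match lay in the windows of TFPI, SERPINE2 or PLAU. Over all 35116 RefSeq windows 7.71% held one. No window of the 6 genes held the full estrogen response element, which 0.057% of all windows did, so its absence is the common case. The GC box was in 5 of the 8 windows and in 45.0% of all. The TATA letters were in that of F3 alone and in 11.5% of all. F3 had 38 CpG pairs, TFPI2 26, PLAUR 18 and TFPI 4, beside a median of 14. TFPI and TFPI2, the genes with the widest line difference, thus have unlike windows. A match describes letters only and shows no binding.

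No member passed the test in any comparison of a treatment with vehicle over both lines, and no probe set of the whole table did. The called share was 0% for estradiol-BSA, estradiol, and each of them with tamoxifen, and the members' count was 0 of 15 in all 4 comparisons. All 4 share the same vehicle arrays. At an unadjusted p under 0.05 limma counted 2024 probe sets for estradiol-BSA with tamoxifen, 1569 for estradiol-BSA, 1080 for estradiol with tamoxifen and 1117 for estradiol, among them 3, 5, 5 and 1 of the 15 members in that order. By single arrays against the vehicle array of the same line, which has no replicate check, differences of at least 1.5-fold were more frequent among the members in A549 than in HTB-182, where 11 of the 15 probe sets averaged below the filter level. In A549 they were found for 4 higher and 4 lower of the 15 probe sets with estradiol-BSA and tamoxifen (background 17.5%), and for 3 higher and 4 lower with estradiol-BSA (17%). They were 4 higher and 5 lower with estradiol and tamoxifen (11.9%), and 3 higher and 1 lower with estradiol (8.83%). In HTB-182 the counts were 0 with estradiol-BSA and tamoxifen (background 1.68%) and 0 with estradiol-BSA (0.553%). The count was 1, PLAU and lower, with estradiol and tamoxifen (0.484%) and with estradiol (0.454%). The A549 counts all rest on the A549 vehicle array, which stood apart as given above, and the part of that array in them was not tested.

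PLAUR was the member with the most even treatment pattern, lower than vehicle on every treated array of both lines at its brightest probe set. Its log2 differences from vehicle were -0.61 ± 0.23 with estradiol-BSA and tamoxifen, -0.65 ± 0.23 with estradiol-BSA, -0.53 ± 0.23 with estradiol and tamoxifen, and -0.44 ± 0.23 with estradiol (SE, 2 pairs each). None passed, with limma adjusted p of 0.564, 0.658, 0.792 and 0.899 in that order. The larger part was in A549, where the single-array differences were -1.09, -1.11, -0.83 and -0.62 in the same order. In HTB-182 they were -0.12, -0.18, -0.22 and -0.25. The probe sets of PLAUR disagreed in A549. Probe set 211924_s_at followed 210845_s_at, with 37.6, 31.8, 34.7, 51.5 and 83.1 in the 5 A549 arrays with vehicle last, whereas 214866_at ran the other way, with 57.0, 31.6, 63.1, 75.2 and 22.5, so that the vehicle array was its lowest. The direction of the PLAUR difference from vehicle in A549 thus depends on the probe set. The ratio of 3′ to middle GAPDH control probe sets, a measure of RNA quality, was 1.04 on the A549 vehicle array and 1.10 with estradiol. It was 1.21 with estradiol-BSA, 1.22 with estradiol and tamoxifen and 1.24 with estradiol-BSA and tamoxifen. Its part in the PLAUR values was not tested.

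The PLAUR calls turned on which vehicle array was kept. Without the HTB-182 vehicle array the difference with estradiol-BSA was -1.01 (limma adjusted p = 0.0108), and all 4 treatments passed, with adjusted p between 0.0108 and 0.0427. In that fit, which rests on the A549 vehicle array alone, 1454 to 2967 probe sets of the table passed. Without the A549 vehicle array the difference with estradiol-BSA was -0.29 (limma adjusted p = 1) and none of the 4 passed.

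At its brighter probe set PLAU lay below vehicle with estradiol and tamoxifen by nearly the same amount in both lines. Its single-array differences from vehicle were -0.74 in A549 and -0.73 in HTB-182, with a fitted value of -0.73 ± 0.25 (limma adjusted p = 0.792). With estradiol alone the lines went apart, at 0.48 in A549 and -0.70 in HTB-182. With estradiol-BSA, PLAU lay at -0.08 in A549 and -0.39 in HTB-182. The HTB-182 readings of PLAU, 22.0, 17.5, 10.5, 11.04 and 27.8 with vehicle last, straddle the filter level, so these are differences between dim readings. The dimmer PLAU probe set, 211668_s_at, was below vehicle on all 4 treated arrays in A549, where the brighter one was above vehicle on 2.

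**Figure D3:**
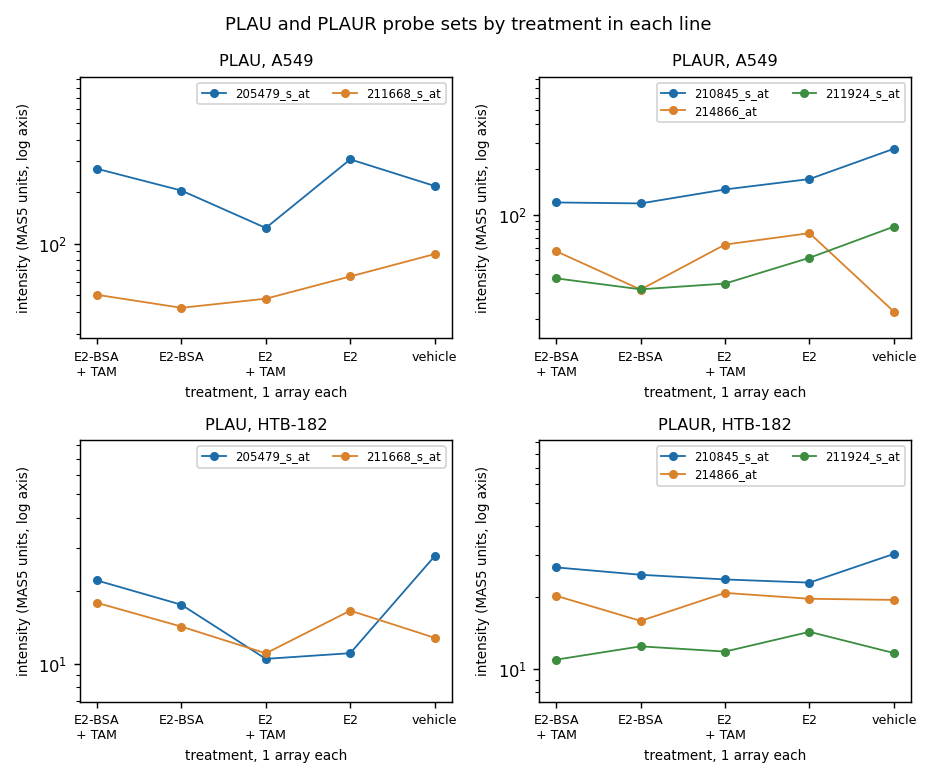
Intensity on a log axis of each PLAU and PLAUR probe set by treatment (E2, estradiol; TAM, tamoxifen), 1 array per point, with vehicle at the right, in A549 (top) and HTB-182 (bottom). In A549 PLAUR probe sets 210845_s_at and 211924_s_at are highest on the vehicle array, at 275 and 83.1, and 214866_at is lowest there, at 22.5.

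The other members differed from vehicle by less than 1.3-fold on average or in unlike directions in the 2 lines, at their brightest probe sets. Over the 4 vehicle comparisons the fitted log2 differences ran from 0.16 to 0.36 for SERPINE2, from -0.08 to 0.05 for F3, from -0.03 to 0.10 for TFPI and from 0.06 to 0.15 for TFPI2. THBD ran from -0.44 to 0.07. The SERPINE2 value of 0.36 with estradiol-BSA and tamoxifen had a 95% interval of 0.02 to 0.70 and a limma adjusted p of 0.564. These fits average both lines, while TFPI, TFPI2 and THBD are at the floor in HTB-182. In A549 every treated array was above the vehicle array for SERPINE2, by 0.34 to 0.52 log2 units.

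The difference in estrogen response between the lines was tested with a term that sets the mean of both estradiol forms without tamoxifen, against vehicle, in A549 against the same in HTB-182. Its model fits each vehicle array exactly, and 1.91% of probe sets passed. Of the 15 member probe sets 1 passed, 210665_at of TFPI. It read 175 with estradiol-BSA and tamoxifen, 163 with estradiol-BSA, 157 with estradiol and tamoxifen, 119.7 with estradiol and 55.1 with vehicle in A549, against 3.97 to 5.70 over the HTB-182 arrays. The A549 vehicle array was the lowest of its line and the treated ones lay above it, by 1.33 log2 units with estradiol-BSA and 0.93 with estradiol. The 3′ to middle GAPDH ratio was also lowest on that vehicle array, at 1.04, then 1.10 with estradiol. It was 1.21 with estradiol-BSA, 1.22 with estradiol and tamoxifen and 1.24 with estradiol-BSA and tamoxifen. The part of RNA quality in these readings was not tested. The fitted difference was 1.08 ± 0.27 (limma adjusted p = 0.032). No member passed in this term with a pseudocount of 1, without the filter, after quantile normalization, after scaling to 1 trimmed mean or without the intensity trend. The brightest TFPI probe set, 213258_at, gave 0.32 ± 0.30 (limma adjusted p = 0.65).

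PLAU at 0.74 ± 0.34 (limma adjusted p = 0.343) and PLAUR at -0.65 ± 0.31 (limma adjusted p = 0.363) had an unadjusted p under 0.05 in this term and did not pass. In each gene another probe set pointed the other way, 211668_s_at of PLAU at -0.71 ± 0.25 (limma adjusted p = 0.201) and 214866_at of PLAUR at 0.85 ± 0.28 (limma adjusted p = 0.149). Probe set 211924_s_at of PLAUR gave -0.89 ± 0.24 (limma adjusted p = 0.0562).

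Estradiol-BSA and estradiol were given at the same dose for the same time, and differ by the albumin coupled to the hormone. Over both lines no member passed the test between them, 0 of 15 where 0% of all probe sets passed. At an unadjusted p under 0.05 limma counted 834 probe sets, 3 of them members. The 95% intervals of the differences, estradiol-BSA minus estradiol, were -0.69 to 0.43 for PLAU, -0.71 to 0.29 for PLAUR, -0.34 to 0.34 for SERPINE2 and -0.28 to 0.32 for F3. They were -0.25 to 0.52 for TFPI, -0.37 to 0.28 for TFPI2 and -1.05 to 0.22 for THBD. These intervals average both lines, and TFPI, TFPI2 and THBD are at the floor in HTB-182, so they bound no difference in A549 alone. For the difference in A549 the fit of the treated arrays gave -0.50 to 0.99 for PLAU, -0.65 to -0.09 for PLAUR, -0.28 to 0.27 for SERPINE2 and -0.04 to 0.47 for F3. It gave -0.14 to 0.43 for TFPI and -0.38 to 0.14 for TFPI2. That fit takes its spread from both lines together. The median SD of log2 values over 5 arrays was 0.183 in A549 and 0.0985 in HTB-182, so these intervals may be too narrow for A549.

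In A549 the THBD arrays divided by the form of estradiol. Probe set 203887_s_at read 159 with estradiol-BSA and tamoxifen and 193 with estradiol-BSA, whereas it read 335 with estradiol and tamoxifen, 367 with estradiol and 361 with vehicle. Both conjugate arrays were below the other 3. This comparison was added after the THBD values had been seen, so the fit describes them. On the 8 treated arrays, with line, form, tamoxifen and their line terms, THBD differed by -0.94 ± 0.12 in A549 (estradiol-BSA minus estradiol, 95% interval -1.21 to -0.66), with pairs at -0.9998 with tamoxifen and -0.87 without it. It missed the threshold (limma adjusted p = 0.0684), as did the other members, 0 of 15 where 0.0864% passed. At an unadjusted p under 0.05 limma counted 2942 of the 23144 probe sets, among them 5 of the 15 members. The THBD interval takes its spread from both lines together.

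Probe set 203888_at of THBD pointed the same way at -0.53 ± 0.17 (limma adjusted p = 0.367), reading 109.6, 90.3, 131, 173 and 123 in the order used above with vehicle last. The untested probe set 237252_at read 18.9, 27.5, 43.7, 40.4 and 35.4, with both conjugate arrays again below the other 3. In HTB-182 THBD was at the floor with 203887_s_at and gave 0.00, and the difference between the lines was -0.94 ± 0.17 (limma adjusted p = 0.567), where 0.00432% of probe sets passed and 0 of 15 members. PLAUR had -0.37 ± 0.12 in A549 (limma adjusted p = 0.367) and a line difference of -0.46 ± 0.17 (limma adjusted p = 0.6). Over 19 other settings THBD in A549 passed in 10. These were a pseudocount of 64 (limma adjusted p = 0.0444), 1 probe set per gene (limma adjusted p = 0.0344) and leaving out any 1 of the 8 treated arrays. The fits without a treated array keep 1 residual degree of freedom and are no check on the THBD difference. Without an A549 array that line is fitted exactly, so the residual spread comes from HTB-182, where THBD was at the floor. Without an HTB-182 array the A549 estimate is unchanged. The ratio of 3′ to middle GAPDH control probe sets, a measure of RNA quality, was 1.24 and 1.21 on the conjugate arrays of A549, 1.22 with estradiol and tamoxifen, 1.10 with estradiol and 1.04 with vehicle, and its part in the THBD values was not tested.

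**Figure D4:**
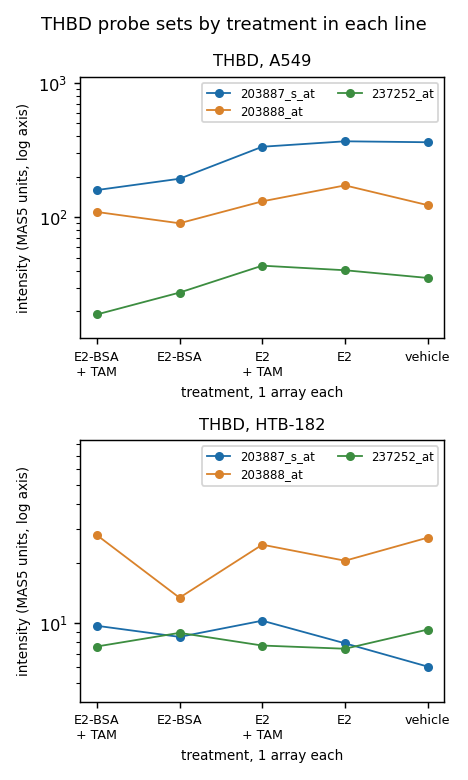
Intensity on a log axis of the 3 THBD probe sets by treatment (E2, estradiol; TAM, tamoxifen), 1 array per point, with vehicle at the right, in A549 (top) and HTB-182 (bottom). In A549 probe set 203887_s_at sits at 159 and 193 on the conjugate arrays and between 335 and 367 on the others.

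Tamoxifen added to either estradiol form gave no member that passed over its 4 pairs of arrays, 0 of 15 where 0% of all probe sets passed, and none passed the test of a tamoxifen effect that differs between the lines, again 0 of 15 and 0%. At an unadjusted p under 0.05 limma counted 392 probe sets in the first test and 484 in the second, with 0 members in either. In A549 the PLAU difference with tamoxifen was 0.39 on top of estradiol-BSA and -1.22 on top of estradiol, opposite directions at the same tamoxifen dose. In HTB-182 it was 0.18 on top of estradiol-BSA and -0.03 on top of estradiol. For the brightest probe sets the 95% intervals of the tamoxifen effect were -0.57 to 0.23 for PLAU, -0.38 to 0.33 for PLAUR, -0.31 to 0.17 for SERPINE2 and -0.15 to 0.27 for F3. They were -0.21 to 0.34 for TFPI, -0.28 to 0.17 for TFPI2 and -0.49 to 0.40 for THBD. These too average both lines. For the effect in A549 they were -0.82 to 0.24 for PLAU, -0.66 to 0.25 for PLAUR, -0.38 to 0.34 for SERPINE2 and -0.28 to 0.34 for F3. For TFPI the interval in A549 was -0.18 to 0.58, for TFPI2 -0.37 to 0.32 and for THBD -0.85 to 0.28. The A549 intervals again take their spread from both lines and may be too narrow. Both PLAU pairs of A549, at 0.39 and -1.22, lay outside its interval.

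The TFPI and TFPI2 probe sets disagreed on treatment in A549. TFPI probe set 210664_s_at read 636 with estradiol-BSA and tamoxifen, 595 with estradiol-BSA, 209 with estradiol and tamoxifen, 775 with estradiol and 521 with vehicle. The array of estradiol with tamoxifen was far below the other 4, a difference of -1.82 log2 units from estradiol alone, while 213258_at differed by 0.29, 209676_at by 0.02 and 210665_at by 0.35 between the same arrays. On top of estradiol-BSA, 210664_s_at differed with tamoxifen by 0.09. Lower TFPI on the array of estradiol with tamoxifen was thus read by 1 of the 4 tested probe sets.

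TFPI2 probe set 209277_at read 2531 with estradiol-BSA and tamoxifen, 2772 with estradiol-BSA, 2231 with estradiol and tamoxifen, 949.8 with estradiol and 1397 with vehicle. The estradiol and vehicle arrays were low and the other 3 high, whereas 209278_s_at was steady on the same arrays, from 3913 to 4577. This split of 209277_at moved with a measure of RNA quality. The 3′ to middle ratio of the GAPDH control probe sets was 1.24, 1.21 and 1.22 on the 3 arrays that were high, and 1.10 and 1.04 on the estradiol and vehicle arrays. The part of RNA quality in the TFPI2 values was not tested. F2R, the thrombin receptor, split the same way at 394, 542, 470.2, 197 and 128 with vehicle last.

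**Figure D5:**
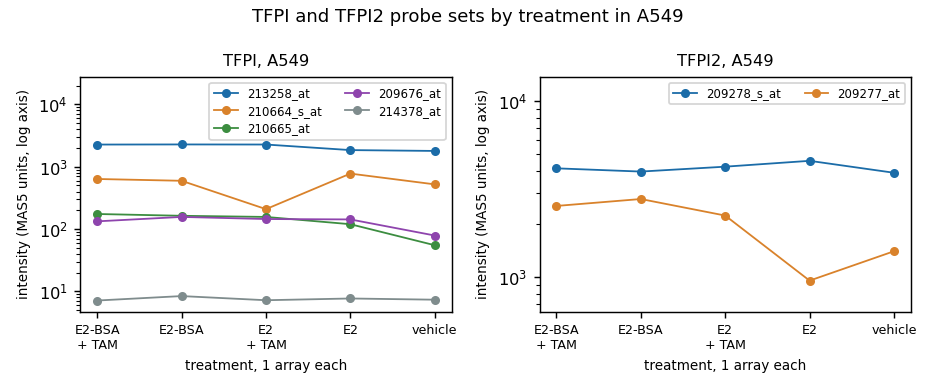
Intensity on a log axis of the TFPI and TFPI2 probe sets in A549 by treatment (E2, estradiol; TAM, tamoxifen), 1 array per point, with vehicle at the right. TFPI probe set 210664_s_at reads 209 on the array of estradiol with tamoxifen while 213258_at reads 2268 there, and TFPI2 probe set 209277_at is lowest with estradiol at 949.8.

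Members varied unequally within a line. Ranked by the SD of log2 values over the 5 A549 arrays, THBD lay at the 97.6 percentile of tested probe sets, PLAU at 96.7 and PLAUR at 96.3. SERPINE2 lay at 58.1, TFPI at 46.8, F3 at 22.3 and TFPI2 at 11.1. In HTB-182 PLAU lay at 98.8 and the brightest probe sets of TFPI, TFPI2 and F3 between 18.6 and 26.4. Other probe sets of the steadier genes ranked high in A549, with 98.5 for 209277_at of TFPI2, 98.9 for 210664_s_at and 98.2 for 210665_at of TFPI, so the rank of TFPI and TFPI2 depends on the probe set.

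For the 3 members whose brightest probe set spanned at least 1 log2 unit within a line, the genes of most similar pattern were sought among 12979, by Pearson's r over the 10 arrays after the mean of each line was taken off. The arrays are the same for all genes, and a single array can set such an r. For PLAU they were HKDC1 (0.968), PDGFRL (0.925) and HOXB2 (0.913). HKDC1, a hexokinase family member, read 476, 422, 339, 534 and 472 in A549 with vehicle last, lowest with estradiol and tamoxifen as PLAU was. For PLAUR they were FAAP24 (0.986), SGPP2 (0.986) and PPP1R16A (0.985), all highest on the A549 vehicle array. For THBD they were PRDM1 (0.981), ABHD2 (0.977) and FOXQ1 (0.974). PRDM1 encodes a transcriptional repressor and FOXQ1 a forkhead transcription factor. FOXQ1 read 117, 129.8, 207, 267 and 259.6 in A549 with vehicle last, so its conjugate arrays were the 2 lowest as for THBD. In HTB-182 it read 5039 to 5483. PRDM1, ABHD2 and FOXQ1 were all higher in HTB-182 than in A549, opposite to THBD. THBD was at the floor in HTB-182, so its likeness to them rests mostly on the A549 arrays.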

How the data were processed

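Gene expression was measured on 10 Affymetrix arrays, 1 per line and treatment. The deposited values are intensities per probe set on a linear scale in 1 table, made by the authors with MAS5 per the submitters' processing notes, which give neither its version nor a scaling target. Of 54675 probe sets 62 controls were left out, and of the rest 41091 named 1 gene in the platform annotation, 1801 several and 11721 none. RefSeq's gene table held 41037 of the 41091 and changed 0 symbols.

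Values were taken as log2(intensity + 16). Probe sets whose mean reached the median of all probe sets (an intensity of 19.7) were kept, which left 23144. Differences were fitted with limma 3.58.1 in R 4.3.3, with moderated statistics, an intensity trend and Benjamini-Hochberg adjustment over all 23144, called at 0.05. The additive model held line and treatment (4 residual degrees of freedom), a further one added line by tamoxifen (3), and the last also line by estrogen (2). The fit of the 8 treated arrays by estradiol form (2) was added after values were seen. The code was tested on simulated data. Each gene is represented by its brightest probe set, with disagreeing probe sets stated. Treatment values are given for members moving the same way in every pair and by at least 1.3-fold, line by treatment terms for those with an unadjusted p under 0.05 or at least 1.5-fold. Up to 6 genes per list were named by the size of their line difference. Members and lists were chosen with earlier results of these data known. Alternatives were the pseudocount, filter, scaling, probe set choice, trend, array weights, the line block and leaving out each array. Promoter windows came from RefSeq on GRCh38.p14.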

Additional observations from a re-analysis of the deposited data

Results flagged for a closer look

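Over 30 groups of 5 arrays, 1 per tested probe set and line, 3 had an array whose gap to the nearest other was wide for the range of the group, and chance alone gives about 1 in 20. TFPI probe set 209676_at read 78.8 on the A549 vehicle array, below the other 4 A549 arrays at 133 to 157. TFPI probe set 213258_at read 7.20 on the HTB-182 vehicle array, above the other 4 at 4.98 to 5.49, all of them far under the filter level. PLAUR probe set 214866_at read 15.9 on the HTB-182 estradiol-BSA array, below the other 4 at 19.5 to 20.9.

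The estrogen response of TFPI probe set 210665_at passed the test between the lines, at 1.08 log2 units in A549 minus HTB-182 (limma adjusted p = 0.032). HTB-182 was at the floor for this probe set, and the test fits both vehicle arrays exactly. The 3′ to middle GAPDH ratio was 1.04 on the A549 vehicle array and 1.10 to 1.24 on the treated A549 arrays. The part of RNA quality in this difference was not tested. The call was lost with a pseudocount of 1, without the filter, after quantile normalization, after scaling to 1 trimmed mean, with 1 probe set per gene, where it was not among those tested, and without the intensity trend.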

How the results depend on the processing

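Each array was a single sample, so the spread is pooled over conditions and array number limits every call. Over 17 named values and 323 alternative settings of them, 297 kept their direction and side of the threshold, 8 lost the call (all of F3), 18 gained one and 0 changed direction. Of the 15 member probe sets higher in A549, 14 to 15 passed without 1 array, and 7 with 1 probe set per gene, because fewer were tested. For estradiol against vehicle 0 to 5 members passed without 1 array, for estradiol-BSA 0 to 5, for estradiol with tamoxifen 0 to 6 and for estradiol-BSA with tamoxifen 0 to 6, in each case above 0 only without the HTB-182 vehicle array. For the estrogen response of A549 minus HTB-182 the count was 1, and it was 0 with a pseudocount of 1, without the filter, after quantile normalization, after scaling, with 1 probe set per gene and without the intensity trend, 2 with a pseudocount of 64 and 2 to 4 without 1 array. The count over the whole table was 442 with all arrays and 332 with a pseudocount of 64. It rose in every fit without 1 array, so the range of member counts is no result about the members. The term could not be fitted without a vehicle array. PLAU ran from 0.31 to 1.18 in that term. For estradiol-BSA against estradiol in A549 the count was 0 and became 1 with a pseudocount of 64, 1 with 1 probe set per gene and 0 to 7 without 1 array, and for its difference between the lines 0 to 4. Fits without a treated array keep 1 residual degree of freedom. With all arrays 20 probe sets of the table passed in A549 and 1 for the difference between the lines. Without a treated array both counts rose many-fold, so these ranges are no result about the members. THBD passed in 10 of 19 settings and ran from -0.9998 to -0.79 over these settings, with limma adjusted p up to 0.245. Apart from the pseudocount of 64 and 1 probe set per gene, the settings in which it passed each left out a treated array. They are no check on THBD, for the reason given above. The cause of the other changes was not tested. Arrays were paired by design, with the line as a block in the treatment comparisons. Without that block 0 members passed in each of the 6 comparisons that used it, as with it. The labels carry no replicate numbers to pair arrays further.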
